A study of Mus musculus with 95 samples.

Results

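The 39 protein-coding genes of the mouse Hoxa, Hoxb, Hoxc and Hoxd clusters were followed in embryonic stem cells that lack different PCGF proteins. They were taken from a table of 23377 genes as every symbol made of Hox, the cluster letter a, b, c or d, and a number. The clusters hold 11, 10, 9 and 9 of them. All cells derive from E14, a mouse embryonic stem cell line, grown on gelatin in serum, with LIF and with blockers of the kinases GSK3β and MEK1/2 added. RNA was sequenced from 14 libraries, 2 for each of 7 genotypes: wild-type, Pcgf1-/-, Pcgf2/4-/-, Pcgf3/5-/-, Pcgf6-/-, Pcgf1/2/4-/- and Pcgf3/5/6-/-. The gene behind PCGF4 is named Bmi1 in the table. The knockouts were made with Cas9 and isolated as clones, the double and triple lines from clones that already carried 1 knockout. The count columns carry 1 clone number for each line, so a difference between a line and wild-type belongs to that clone, and whether the 2 libraries of a genotype came from separate cultures is not stated. The p-values then measure only the spread between these libraries, which may be technical. Chromatin immunoprecipitation sequencing (ChIP-seq) gave 80 peak lists for 12 antibodies, with 1 list for an antibody in a line except for RING1B and H2AK119Ub1 in Pcgf1/2/4-/-, which have 2 each. Some lists of PCGF proteins come from further E14-labelled cells: Ezh1/2-/-, Ring1a-/-_Ring1bfl (Ring1a knocked out, Ring1b floxed), Ring1a/b-/-, and cells with a short hairpin RNA, of which the control is labelled shCtr.

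Hox genes encode homeodomain transcription factors that give cells their position along the head-to-tail axis of the embryo. Within a cluster the low-numbered genes act toward the head and the high-numbered genes toward the tail and the limb ends, and genes with the same number in different clusters (paralogs) are close relatives. In embryonic stem cells the clusters are a classic target of Polycomb proteins. Polycomb repressive complex PRC1 places a single ubiquitin on histone H2A (the mark H2AK119Ub1) through RING1A or RING1B, and its PCGF subunit sets the type of complex: PCGF2 or PCGF4 in canonical PRC1, PCGF1, PCGF3, PCGF5 or PCGF6 in variant PRC1. PRC2, which contains SUZ12, places H3K27me3, a mark that canonical PRC1 binds.

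Polycomb sites in mammals are rich in CG dinucleotides, so the sequences at the centre of a strong wild-type RING1B peak in each cluster are shown with every CG in capitals. They were read from the plus strand of the mm9 reference, the build named in the submitters' processing notes, and each is 151 bases centred on the peak summit. Among the peaks of its cluster ranked by p-value, each is the strongest whose centre touches no annotated exon. The Hoxa sequence is at chr6:52203063-52203213 and holds 13 CG, and the Hoxb sequence is at chr11:96194175-96194325 and holds 16. The Hoxc sequence at chr15:102807538-102807688 and the Hoxd sequence at chr2:74525827-74525977 hold 9 each.
Hoxa RING1B peak centre: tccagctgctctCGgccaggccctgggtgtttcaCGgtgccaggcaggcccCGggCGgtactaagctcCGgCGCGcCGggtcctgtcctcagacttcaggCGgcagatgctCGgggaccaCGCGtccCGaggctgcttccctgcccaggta
Hoxb RING1B peak centre: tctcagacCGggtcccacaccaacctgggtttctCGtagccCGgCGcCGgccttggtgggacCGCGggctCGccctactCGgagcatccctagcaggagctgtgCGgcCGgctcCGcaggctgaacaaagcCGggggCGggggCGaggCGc
Hoxc RING1B peak centre: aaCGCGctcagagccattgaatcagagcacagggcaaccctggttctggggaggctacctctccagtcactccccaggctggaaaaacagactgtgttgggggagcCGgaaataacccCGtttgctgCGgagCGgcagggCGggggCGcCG
Hoxd RING1B peak centre: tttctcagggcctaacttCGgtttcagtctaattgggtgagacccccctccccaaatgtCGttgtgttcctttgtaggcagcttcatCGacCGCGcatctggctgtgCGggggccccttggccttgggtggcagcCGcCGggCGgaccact

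Hoxb13, Hoxc4 and Hoxc13 had no wild-type RING1B peak within 1 kb of a start. For Hoxb13 and Hoxc13, the higher of these in wild-type RNA, the 200 bases before the most upstream annotated start follow, 5′ to 3′ on the strand of the gene, again with CG in capitals. Hoxb13 is at chr11:96055430-96055629 on the plus strand with 11, and Hoxc13 at chr15:102751334-102751533 on the plus strand with 12. The same window held a median of 9 CG over the 39 Hox genes (range 2 to 33) and of 7 over 22233 protein-coding genes with such a window. Both windows lay above both medians.
Hoxb13 upstream: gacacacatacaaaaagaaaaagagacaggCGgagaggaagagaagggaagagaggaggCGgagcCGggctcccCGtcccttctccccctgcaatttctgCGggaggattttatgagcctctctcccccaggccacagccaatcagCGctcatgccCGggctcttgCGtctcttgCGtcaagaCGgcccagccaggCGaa
Hoxc13 upstream: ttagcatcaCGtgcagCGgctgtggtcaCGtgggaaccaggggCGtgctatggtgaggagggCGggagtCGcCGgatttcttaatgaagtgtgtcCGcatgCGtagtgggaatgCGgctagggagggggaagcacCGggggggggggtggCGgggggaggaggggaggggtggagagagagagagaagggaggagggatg

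Library totals ran from 2147968 to 7848161 counts, with the lowest in Pcgf1/2/4-/- and the highest in Pcgf1-/-. The 2 wild-type libraries differed by less than sampling noise (chi-square per degree of freedom 0.958 over 14899 genes), against 1.18 to 19.5 in the knockout pairs, and every call against wild-type was therefore also made with them counted as 1 sample. Pcgf1 RNA fell to 6.30% of wild-type in Pcgf1-/- and 1.13% in Pcgf1/2/4-/-, and Pcgf6 RNA was 0 in both Pcgf6-/- libraries. The RNA of the other targeted genes does not check the labels, since an edited gene can still be transcribed: it stood at 42.3% (Pcgf5 in Pcgf3/5-/-) to 126% (Pcgf5 in Pcgf3/5/6-/-) of wild-type, and Pcgf6 at 112% in Pcgf3/5/6-/-. Summed pluripotency markers (8 genes) were at 1716 to 3352 CPM (counts divided by the scaled total of their library) in every library, with none at 0. Primitive endoderm markers (7 genes) summed to 3.09 to 3.57 CPM in wild-type, with Gata4, Gata6, Sox17, Dab2 and Foxa2 at 0. They summed to 48.7 to 55.8 in Pcgf6-/- and 56.9 to 65.2 in Pcgf3/5/6-/-, with none at 0. Most of the sum in these lines was Dab2 (means of 40.45 and 45.73 CPM), followed by Pdgfra (7.603 and 10.42). Gata4, Gata6, Sox17 and Foxa2 had means of at most 1.594 CPM in either line, and Sox7 was below its wild-type mean in both. Fibroblast markers (6 genes) summed to 11.4 to 15.3 CPM in wild-type (Col3a1 at 0), 38.9 to 44.8 in Pcgf6-/- (none at 0) and 48.7 in both Pcgf3/5/6-/- libraries (Col3a1 and Lum at 0). In bulk RNA, fewer cells that express a gene and less RNA per cell cannot be told apart.

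In wild-type cells most Hox genes were silent or nearly so, and those that were not included Hoxb13, Hoxc4 and Hoxc13, which had no RING1B peak. All Hox counts together were 85.2 and 79.2 CPM in the 2 libraries, and 24 of the 39 genes had a count in each. To compare genes with each other, CPM was divided by exon length. Hoxc13, known for hair growth, was the highest of its cluster at 4.32 CPM per kb. Hoxb13, the most tail-ward Hoxb gene, was the highest of its own at 3.89. Hoxa7 stood at 3.84 and Hoxc4 at 2.27. In Hoxd the highest was Hoxd8 at 0.517, with 1.57 and 1.27 CPM. Hoxb13, Hoxc4 and Hoxc13, without a wild-type RING1B peak, thus ranged from 2.27 to 4.32 CPM per kb, and the 35 members with a peak from 0 to 3.84 (median 0.0696). Of those 35, Hoxa7 alone reached the range of the other 3. These are levels within 1 cell state set beside 1 peak list, given as a description.

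**Figure D1:**
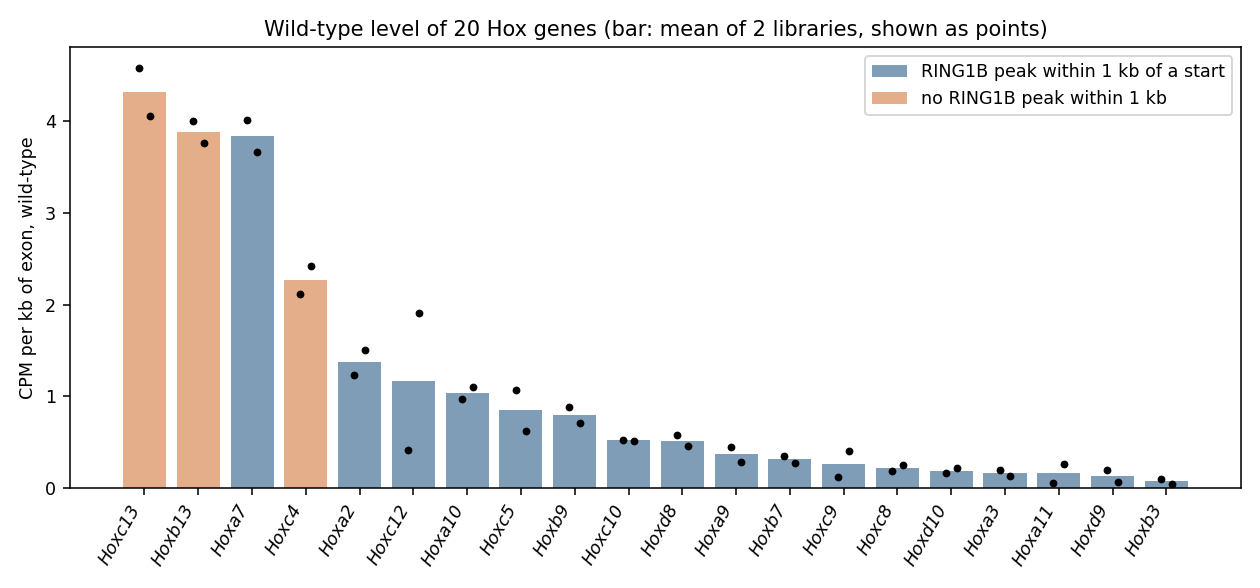
Wild-type level of 20 Hox genes in CPM per kb of exon (bars are means of 2 libraries, points the libraries), coloured by whether a RING1B peak lies within 1 kb of a start. Hoxc13, Hoxb13 and Hoxc4, without a peak, stand at 4.32, 3.89 and 2.27, and Hoxa7, with a peak, at 3.84.

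Polycomb occupied almost the whole family in wild-type cells. RING1B peaks were at 35 of 39 Hox promoters against 14.6% of 22238 protein-coding promoters, SUZ12 at 36 (15.8%), H3K27me3 at 32 (11.4%) and PCGF2 at 34 (12.2%). H2AK119Ub1 was at 19 (2.90%). All 3 of RING1B, SUZ12 and H3K27me3 were at 32 promoters, and Hoxb13 and Hoxc13 had none of them. Hoxc4 had SUZ12 without RING1B. RING1B peaks covered 51.4% of the Hoxa cluster (chr6:52105366-52210874), 48.2% of Hoxd (chr2:74506367-74603200), 30.1% of Hoxc (chr15:102751534-102867274) and 23.4% of Hoxb (chr11:96055630-96229570). The authors' fold enrichment of RING1B peaks had a median of 8.72 over the whole list and of 16.0 in Hoxd, 11.05 in Hoxa, 9.75 in Hoxb and 8.92 in Hoxc. By this median Hoxd was the most and Hoxc the least enriched. By the highest fold of a peak Hoxd also led (31.4), and Hoxb was lowest (23.3, against 24.1 in Hoxc). H3K4me3, the mark of promoters that are active or poised, was at 35 Hox promoters (64.8% of all), all except Hoxb1, Hoxb2, Hoxb3 and Hoxb4. H3K36me3, the mark of transcribed gene bodies, was within 1 kb of a start of none of the 39 in any of its 5 lists. These lists reached 17.3% to 20.9% of all promoters. Inside the clusters, H3K36me3 peaks covered 1.46% to 2.755% of the length.

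**Figure D2:**
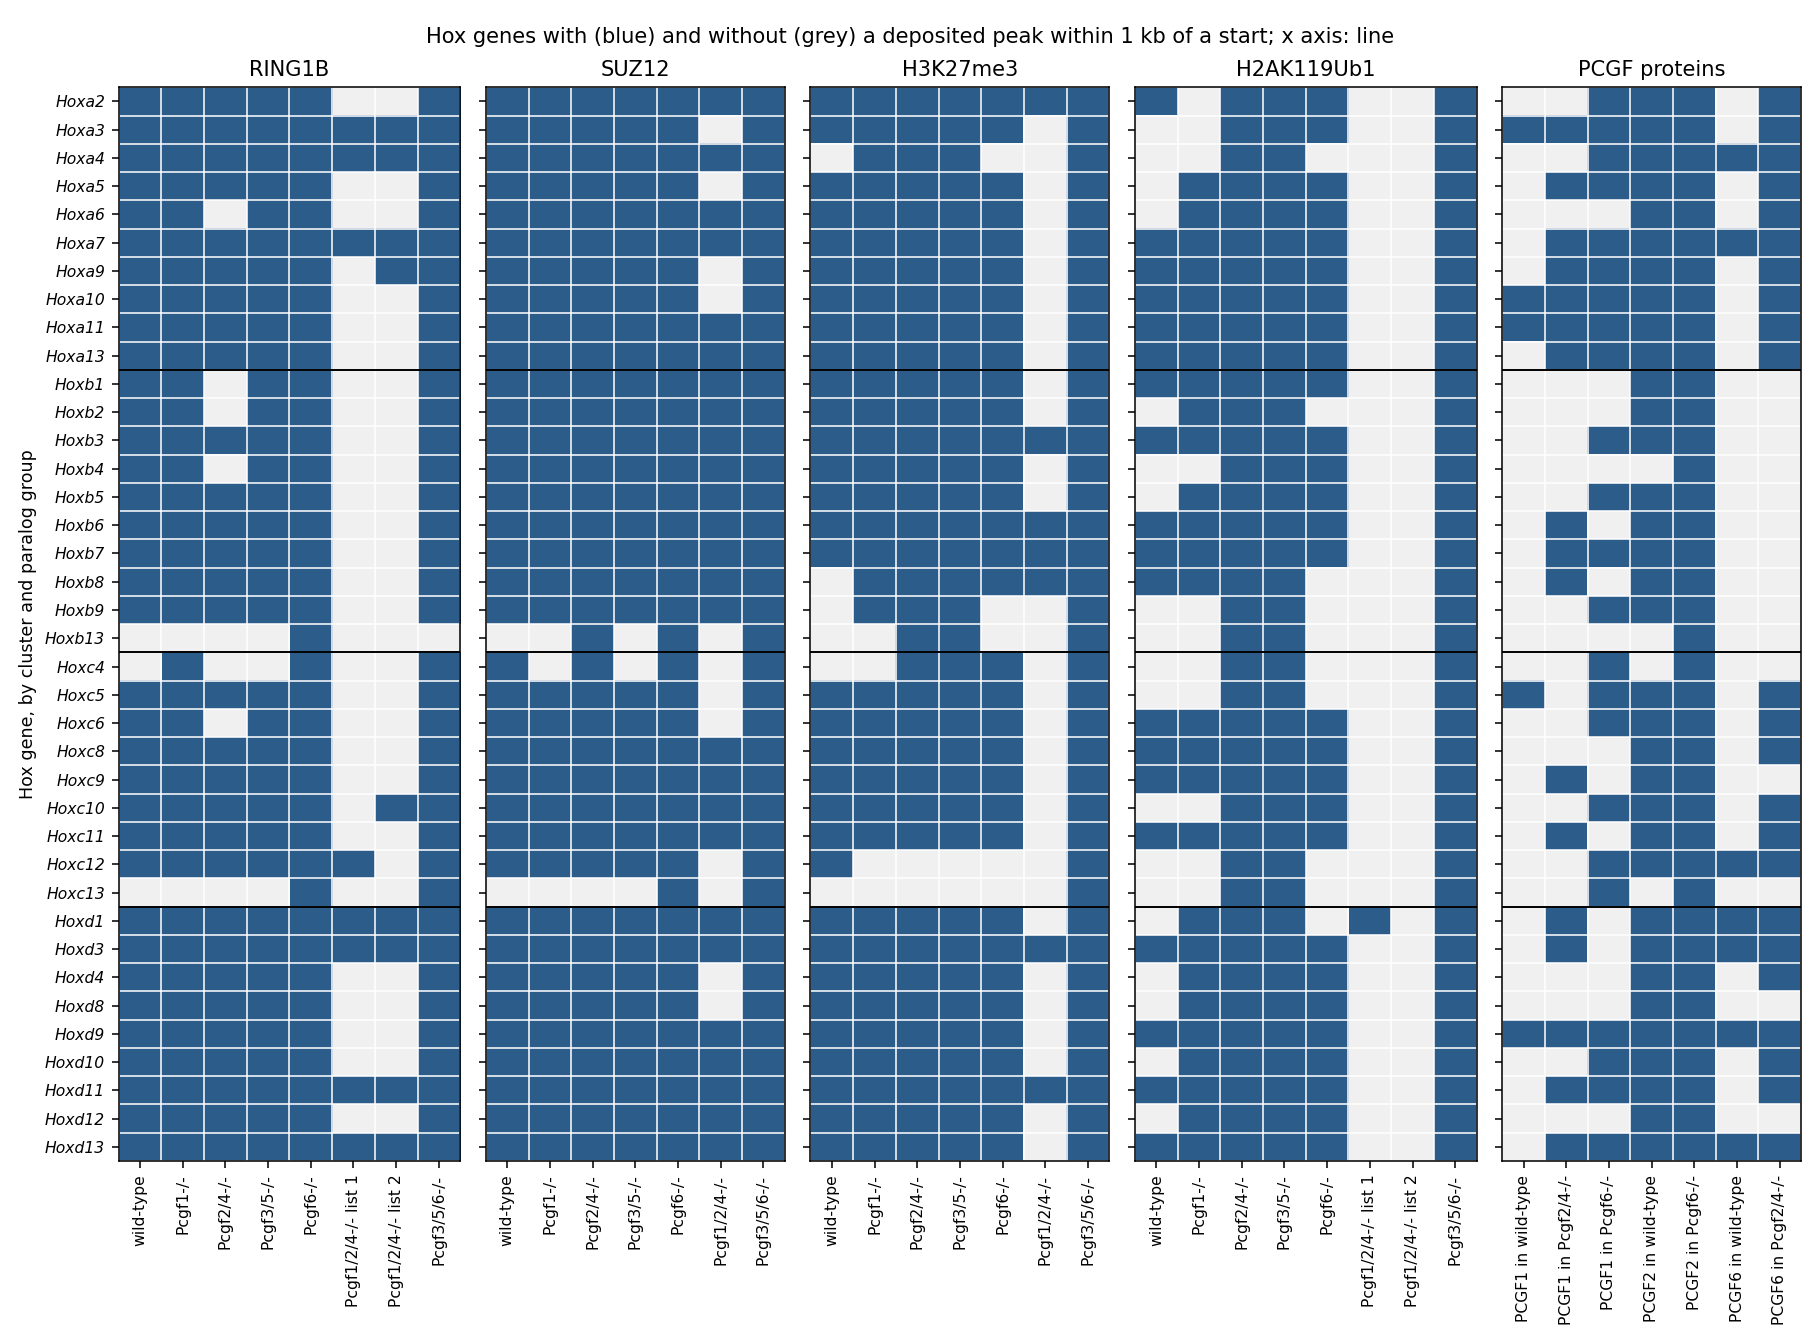
Presence (filled) or absence of a peak within 1 kb of a start for Hox genes in each list, by antibody and line. RING1B and SUZ12 mark almost all members until the Pcgf1/2/4-/- lists, where RING1B is at 8 and 9 and SUZ12 at 26.

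To be tested, a gene needed enough counts in some genotype, and 18 of the 39 Hox genes passed, 6 of 11 in Hoxa, 4 of 10 in Hoxb, 5 of 9 in Hoxc and 3 of 9 in Hoxd. Of these, 9 reached the filter level of 1.73 CPM in both wild-type libraries and 9 only in knockout libraries. Hoxb1 passed only through Pcgf3/5/6-/-, and Hoxd9, Hoxd10 and Hoxd13 only through Pcgf1/2/4-/-, so they had to be high there. Counts of raised and lowered members below are therefore descriptions of the genes that passed, not of all 39. The other 21 members summed to 9 to 74 counts in a library, and Hoxb5 had no count in any. All 15464 genes that passed were tested together in a quasi-likelihood fit with edgeR, and p-values were adjusted by Benjamini and Hochberg's method with a threshold of 0.05. The 6 comparisons with wild-type share the same 2 wild-type libraries.

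Hox genes, mainly of Hoxa and Hoxb, were raised in the line that lacks PCGF1. In Pcgf1-/- 11 of the 18 tested members rose, where 13.9% of all tested genes did, and Hoxd10 fell, where 18.4% did. All 6 tested Hoxa genes and 3 of 4 tested Hoxb genes rose, with Hoxc10 and Hoxd13. Among the 9 members that reached the filter level in wild-type, 6 rose and none fell. The median log2 fold change was 0.97 over the 18 and -0.05 over all tested genes. Summed Hoxb counts were at 57.3 and 47.8 CPM, against 13.4 and 11.5 in wild-type, and Hoxa at 106 and 99.4 against 47.2 and 42.8. Summed Hoxd counts overlapped with wild-type, at 2.62 and 1.14 CPM against 2.57 and 2.11, and Hoxd10 and Hoxd13 were tested only through Pcgf1/2/4-/-.

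Hoxa9, a regulator of blood progenitors, had 1.57 and 0.985 CPM in wild-type and 11.6 and 10.1 in Pcgf1-/-. Both knockout libraries lay far above both wild-type ones, with a log2 fold change of 3.08 ± 0.43 (SE, adjusted p = 0.000106 by edgeR). Hoxb7, a trunk gene, had 1.43 and 1.13 CPM in wild-type and 10.3 and 8.23 in the knockout. The groups again did not overlap (log2 fold change 2.87 ± 0.37). Hoxb13 stood at 8.85 and 8.30 CPM in wild-type and 41.8 and 34.3 in Pcgf1-/-, the largest gain in CPM of any member in that line (log2 fold change 2.16). Hoxa10, a patterning gene of the lumbar region and the uterus, rose by 2.497 on the log2 scale, from 3.71 and 4.22 to 24.7 and 19.7 CPM. With the wild-type libraries counted as 1 sample, the members called in this line in either direction went from 12 to 9, and Hoxa2, Hoxa7 and Hoxb9 were among those lost (adjusted p = 0.058, 0.0555 and 0.0729 by edgeR).

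Hoxd13, which acts in the digits, had no count in wild-type and 10 counts in Pcgf1-/- (0.765 and 0.686 CPM), at least 3.48-fold higher against a floor of 3 counts over the group (adjusted p = 0.00553 by edgeR). Hoxd10 had 7 counts in wild-type and none in Pcgf1-/-, at least 2.24-fold lower (adjusted p = 0.0206 by edgeR). The Hoxd10 call was lost when any single library of the comparison was left out. DESeq2 called 12 members raised and none lowered in this line. Posterior neuromesodermal markers (6 genes), of cells that express Hox genes in the embryo, summed to 27.7 to 34.2 CPM against 110 in wild-type. Cdx2 and T made up most of that wild-type sum, at 74.4 and 33.1 CPM. The part of these markers in the Hox result was not tested.

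RING1B, PCGF2 and SUZ12 peaks stayed at most Hox promoters in Pcgf1-/-, and the 2 histone marks covered more of the clusters, in longer lists. RING1B was at 36 promoters (14.7% of all promoters), gained at Hoxc4 and lost at none, and covered 37.9% of the 4 clusters against 35.9% in wild-type. PCGF2 was at 32 promoters (11.99%), and SUZ12 at 35 (14.6%). H3K27me3 was at 34 (17.8%) and covered 47.1% of the clusters against 23.6%, in a list of 20147 peaks against 8063. H2AK119Ub1 was at 27 promoters (7.98%) against 19 and covered 13.3% against 5.01%, in a list of 10882 peaks against 1741. With the Pcgf1-/- list shortened to the shortest of the antibody, H2AK119Ub1 was at fewer than these 27. The higher count was thus not shown to hold at equal list length. Hoxa9, Hoxa10, Hoxb7 and Hoxc10 thus rose while their promoters still had RING1B and SUZ12 peaks. Peak lists have 1 sample each, so these differences have no replicate check.

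Hox genes were also raised in the line that lacks PCGF2 and PCGF4, and here the RING1B peaks shrank. In Pcgf2/4-/- 10 of the 18 tested members rose, where 8.10% of all tested genes did, and none fell, where 13.5% did (12 members had an unadjusted p below the threshold, and DESeq2 called 10 raised and none lowered). All 6 tested Hoxa genes were called raised again, Hoxa2 narrowly, with Hoxb9, Hoxb13, Hoxc9 and Hoxc10. The median log2 fold change was 1.33 over the 18 and 0 over all tested genes. None of the 3 tested Hoxd genes passed the test. Streak and mesoderm markers (6 genes) summed to 19.3 to 28.5 CPM in this line, with Mesp1 at 0, against 51.1 to 58.1 in wild-type with none at 0. Fibroblast markers (6 genes) summed to 4.19 to 4.60 CPM, with Col3a1 and Lum at 0, against 11.4 to 15.3 with Col3a1 at 0. Both sums were thus lower than in wild-type, and their part in the Hox result was not tested.

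Hoxa9 stood at 20.52 and 24.02 CPM in Pcgf2/4-/- against 1.57 and 0.985 in wild-type. Its log2 fold change of 4.13 ± 0.40 (adjusted p = 1.58e-05 by edgeR) was the largest among the members in that line. Hoxc9, a thoracic gene, had 3.77 and 6.01 CPM against 0.285 and 0.985, a log2 fold change of 3.03 ± 0.53 in groups that did not overlap. Hoxa10 rose by 2.71, to 25.1 and 26.7 CPM. Hoxb7 had 2.09 and 2.68 CPM, above both wild-type libraries, but did not pass the test (log2 fold change 0.98, adjusted p = 0.195 by edgeR). Hoxa2, which patterns the branchial arches, passed narrowly (adjusted p = 0.0429 by edgeR) and lost its call in 8 of 12 alternatives. Among these were DESeq2 (adjusted p = 0.11) and the wild-type libraries counted as 1 sample.

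RING1B peaks covered 12.2% of the clusters in Pcgf2/4-/- against 35.9% in wild-type, in lists of 5607 and 5454 peaks. The whole list also covered less, 4.78 against 7.47 Mb of the genome. Coverage was lower in each cluster: 22.1% of Hoxa, 5.82% of Hoxb, 7.74% of Hoxc and 18.04% of Hoxd. RING1B was still at 30 promoters (16.3% of all), lost at Hoxa6, Hoxb1, Hoxb2, Hoxb4 and Hoxc6. SUZ12 was at 38 promoters (20.3%) and covered 32.8% of the clusters, close to the share in wild-type. So 8 promoters had SUZ12 without RING1B, against 1 in wild-type. The share of all promoters with SUZ12 alone was not counted. SUZ12 was at more of all promoters than RING1B here (20.3% and 16.3%) and in wild-type (15.8% and 14.6%). H3K27me3 was at 37 promoters and H2AK119Ub1 at all 39, but these lists were much longer than those of wild-type (112110 against 8063 peaks, and 121944 against 1741) and reached 32.3% and 36.7% of all promoters. PCGF2 was at no Hox promoter in Pcgf2/4-/- (3.19% of all).

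Few of the tested Hox genes changed in the line that lacks PCGF3 and PCGF5. In Pcgf3/5-/- Hoxb13 alone rose, where 11.1% of all tested genes did, and Hoxd10 alone fell, where 10.4% did. Hoxb13 had 25.0 and 18.4 CPM against 8.85 and 8.30, groups that did not overlap (log2 fold change 1.35 ± 0.24, adjusted p = 0.00129 by edgeR). Hoxd10 had no count against 7 in wild-type, at least 2.098-fold lower (adjusted p = 0.0324 by edgeR), a call lost in 8 of 10 alternatives. Hoxa10 had 7.75 and 6.14 CPM against 3.71 and 4.22 and missed the threshold (adjusted p = 0.0518 by edgeR), while DESeq2 called 2 members raised. The median log2 fold change was 0.02 over the 18 and 0 over all tested genes. An unadjusted p below the threshold was found for 6 members. Summed Hoxb counts were higher, at 31.0 and 21.3 CPM against 13.4 and 11.5 in wild-type. Summed Hoxd counts were lower, at 0.668 and 0.384 CPM against 2.57 and 2.11. The Hoxa and Hoxc sums overlapped with wild-type. RING1B peaks were at the same 35 promoters as in wild-type and covered 34.8% of the clusters. PCGF2 was at 34 promoters (9.21% of all) and SUZ12 at 35 (16.2%). H2AK119Ub1 was at all 39, in a list of 128786 peaks that reached 62.6% of all promoters.

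The change in the line that lacks PCGF6 had the opposite sign: Hox RNA was lower and RING1B peaks were wider. In Pcgf6-/- none of the 18 tested members rose, where 27.8% of all tested genes did, and 7 fell, where 18.6% did (8 members had an unadjusted p below the threshold, and DESeq2 called 8 lowered and none raised). Among those that fell were Hoxa2, Hoxa7, Hoxa10, Hoxc5, Hoxc10 and Hoxd10. Among the 9 that reached the filter level in wild-type, 5 fell. The median log2 fold change was -0.93 over the 18 and 0.03 over all tested genes. All Hox counts together were 49.4 and 45.7 CPM, against 85.2 and 79.2 in wild-type.

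Hoxa2 had 3.00 and 3.66 CPM in wild-type and 0.124 and 0 in Pcgf6-/-. That is 1 count against 47, or 2.06% of wild-type (exact 95% interval 0.0512% to 12.1%, counting error only, adjusted p = 5.35e-05 by edgeR). Hoxc10, which specifies lumbar identity, had 0.999 and 0.985 CPM in wild-type and no count in the knockout, at least 4.81-fold lower (adjusted p = 0.00262 by edgeR). Hoxa10 fell by 3.19 on the log2 scale, to 0.249 and 0.613 CPM, and Hoxa7 fell by 2.20, from 11.6 and 10.55 to 2.86 and 1.84. In each of these the groups did not overlap. Hoxd10 had no count against 7 (at least 2.41-fold lower), a call lost in 3 of 10 alternatives. Hoxa3 and Hoxb13 showed no such fall: Hoxb13 had 11.1 and 8.27 CPM (log2 fold change 0.19, adjusted p = 0.615 by edgeR).

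RING1B peaks in Pcgf6-/- covered 67.7% of the clusters, against 35.9% in wild-type, in a list of similar length (5563 peaks) that reached a smaller share of all promoters (12.1%). Coverage was higher in each cluster, at 85.5% of Hoxa, 79.4% of Hoxd, 67.5% of Hoxc and 50.4% of Hoxb. RING1B was at all 39 promoters, with Hoxb13, Hoxc4 and Hoxc13 among the additional ones. SUZ12 was also at all 39 (13.8% of all) and covered 64.0% of the clusters. PCGF2 was at all 39 (18.6%) and covered 73.1%, in a longer list than that of wild-type (7739 and 4472 peaks). H3K27me3 coverage was 27.4% against 23.6%. The RNA of Hoxb13, Hoxc4 (log2 fold change -0.27, adjusted p = 0.455 by edgeR) and Hoxc13 (-0.57, adjusted p = 0.147) did not pass the test. The sums of the primitive endoderm and fibroblast markers named above were higher in this line. The posterior neuromesodermal markers summed to 6.10 to 8.27 CPM against 110 in wild-type, with Wnt3a and Tbx6 at 0. Their part in the Hox result was not tested.

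**Figure D3:**
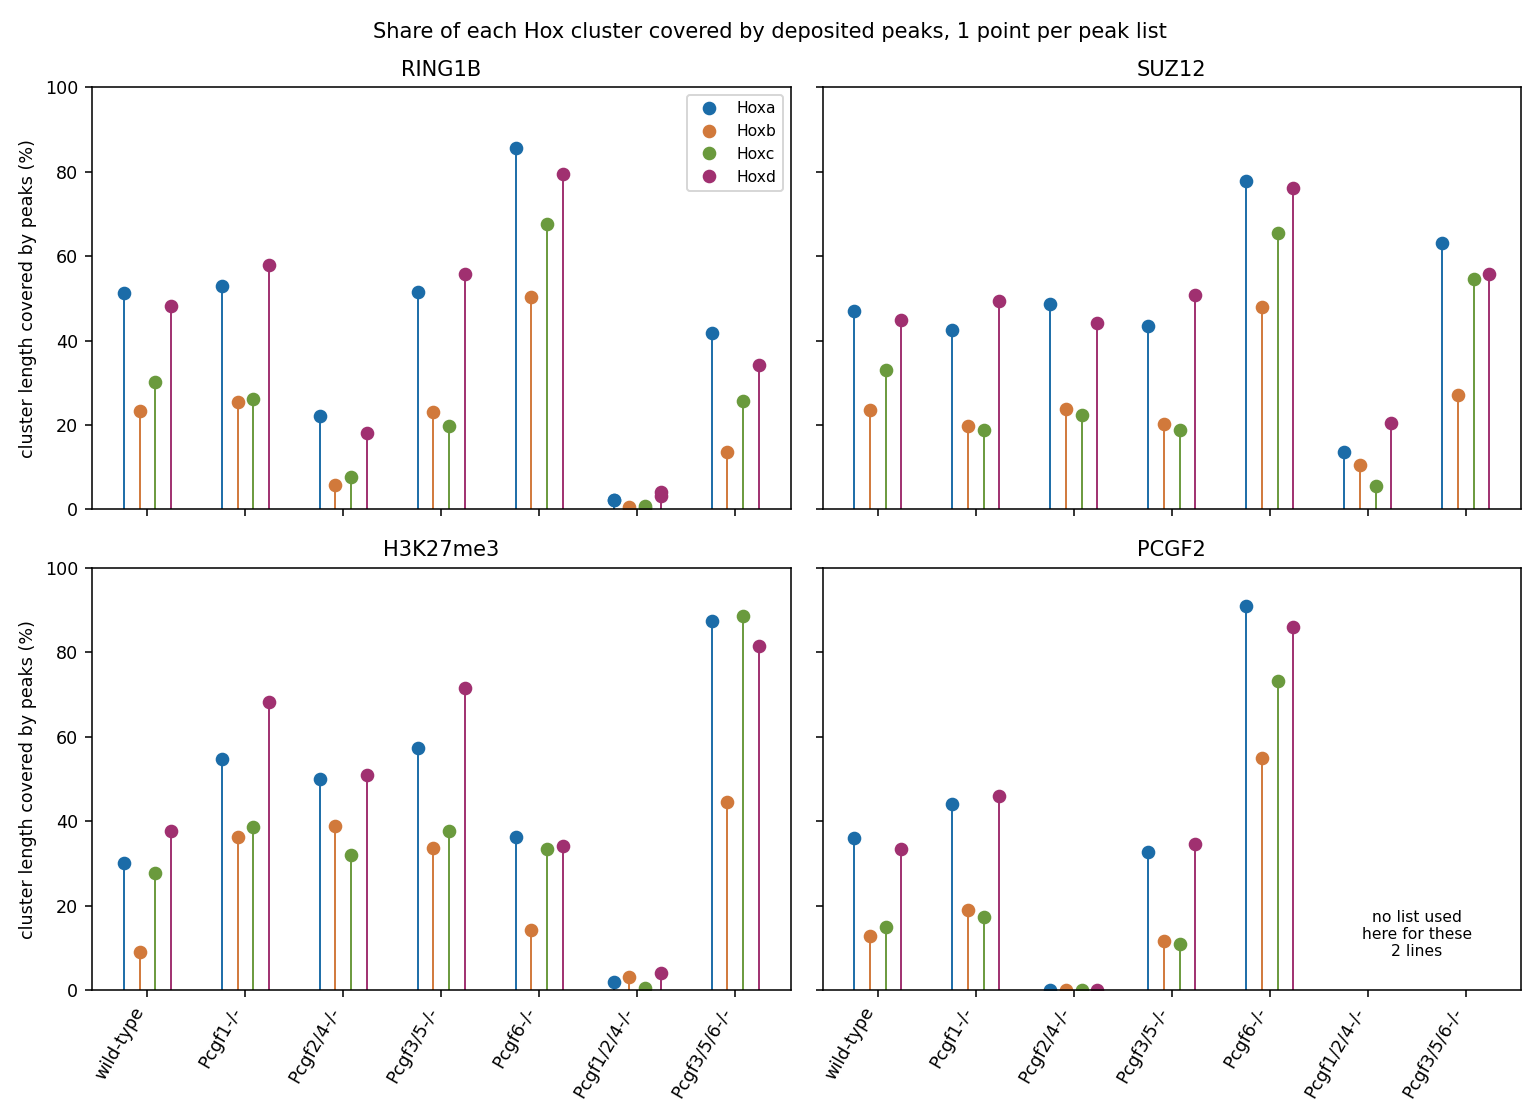
Percent of each Hox cluster covered by RING1B, SUZ12, H3K27me3 and PCGF2 peaks in each line, 1 list each (2 for RING1B in Pcgf1/2/4-/-, and no PCGF2 list for the triple lines). RING1B coverage of Hoxa is 51.4% in wild-type, 22.1% in Pcgf2/4-/-, 85.5% in Pcgf6-/- and 2.35% and 2.22% in Pcgf1/2/4-/-.

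In the line that lacks PCGF1, PCGF2 and PCGF4 the tail-ward genes were raised most, and summed Hoxd counts were higher. In Pcgf1/2/4-/- 11 of the 18 tested members rose, where 14.4% of all tested genes did, and none fell, where 22.6% did (11 had an unadjusted p below the threshold, and DESeq2 called 11 raised and none lowered). Among the 9 that reached the filter level in wild-type, 5 rose. All 3 tested Hoxd genes rose, which were tested only through this line, with Hoxa7, Hoxa9, Hoxa10, Hoxb7, Hoxb9, Hoxb13, Hoxc5 and Hoxc10. The median log2 fold change was 1.66 over the 18 and -0.11 over all tested genes. Across the 18 genes the log2 fold change had a Spearman correlation of 0.624 with the paralog number, given as a description, since the genes are not independent replicates and 3 of them passed the filter only through this line. Members numbered 9 to 13 summed to 149 and 142 CPM against 30.4 and 31.1 in wild-type, and those numbered 1 to 3 to 24.6 and 28.9 against 31.0 and 26.4. So the wild-type and knockout libraries overlapped for the head-ward genes and were far apart for the tail-ward ones.

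Hoxd13 had no count in wild-type and 5.87 and 5.42 CPM in Pcgf1/2/4-/-, at least 26.5-fold higher (23 counts, adjusted p = 5.43e-05 by edgeR). Hoxd9, a limb and lumbar gene, had 0.428 and 0.141 CPM in wild-type and 10.1 and 8.58 in the knockout (log2 fold change 4.93 ± 0.50, adjusted p = 2.15e-05 by edgeR). Hoxd10 rose by 3.50, from 0.428 and 0.563 to 4.81 and 6.77 CPM. Summed Hoxd counts were 26.2 CPM in both knockout libraries and at most 3.35 in any library of any other genotype. The sum covers all 9 Hoxd members, so it does not depend on the filter. Hoxa9 rose by 3.72 ± 0.47, to 17.1 and 17.2 CPM, and Hoxa10 by 3.51 ± 0.25, to 43.2 and 47.4 CPM, its highest level in any line.

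**Figure D4:**
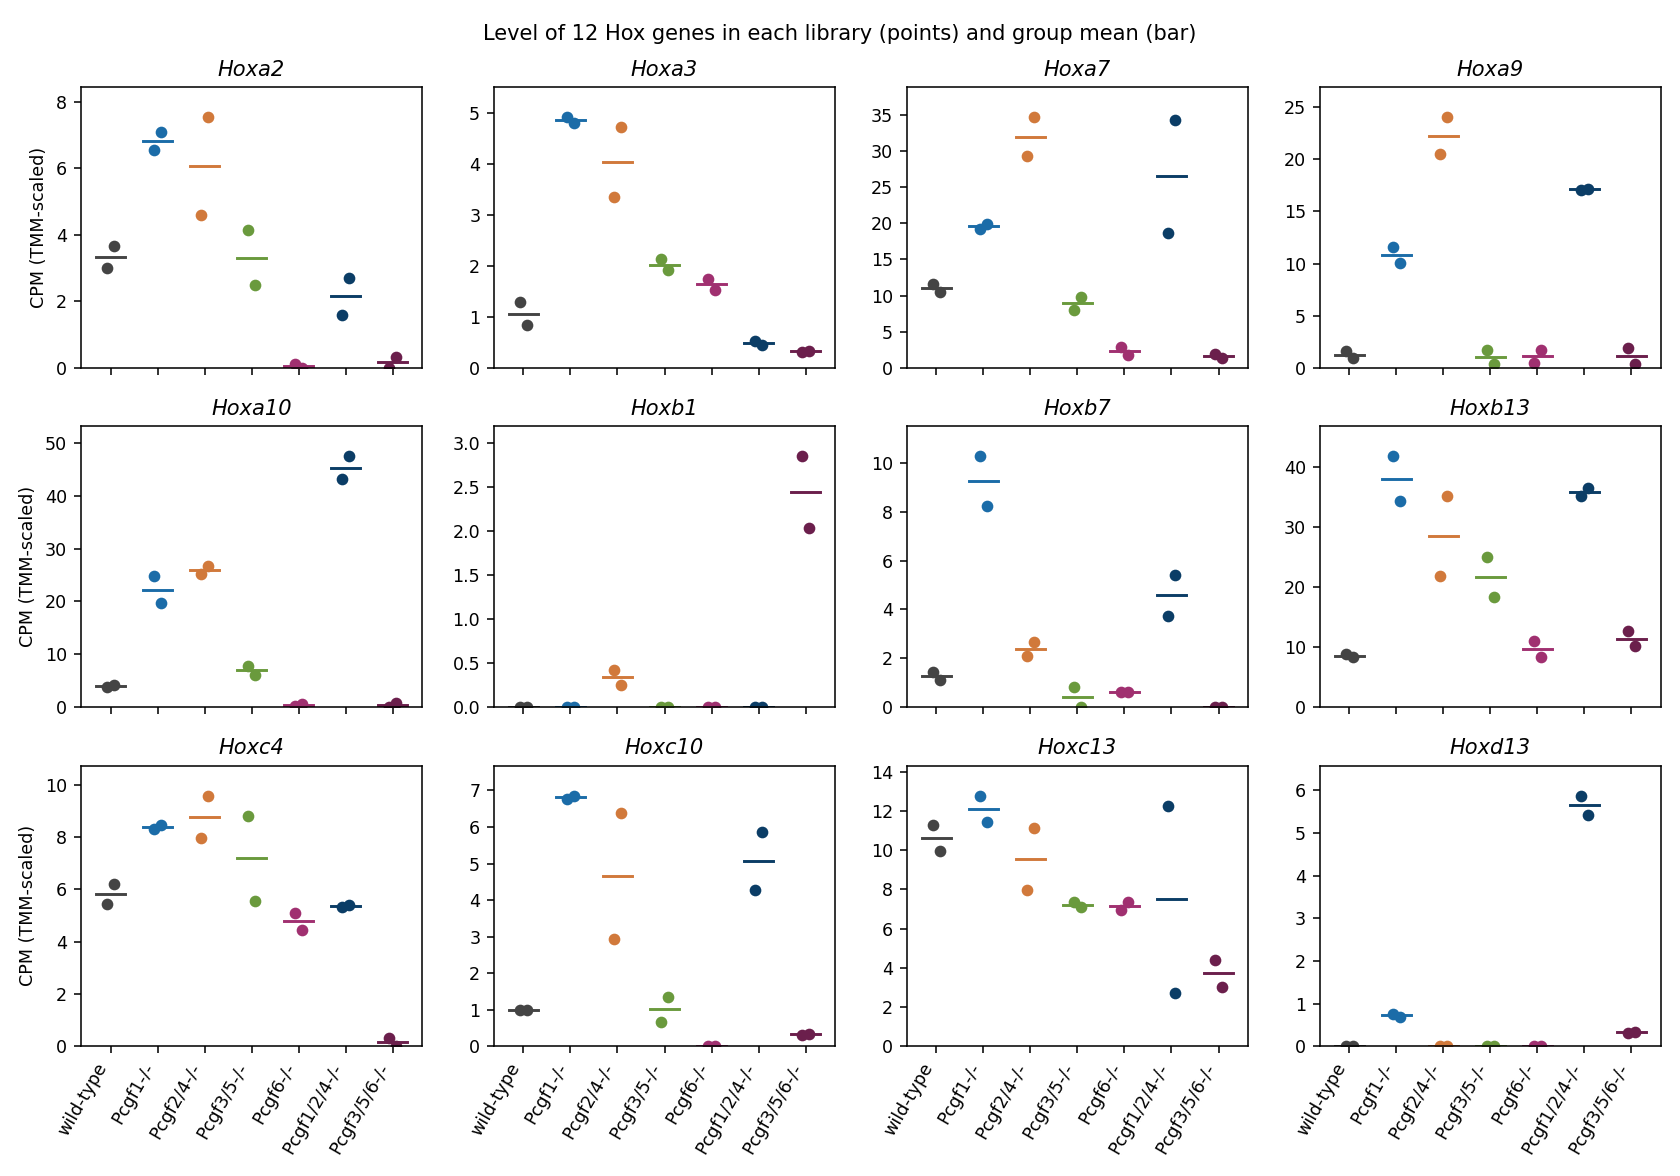
CPM in each library (points) and group means (bars) of 12 Hox genes in the 7 genotypes. Hoxa9, Hoxa10 and Hoxb13 are high in Pcgf1-/-, Pcgf2/4-/- and Pcgf1/2/4-/-, Hoxd13 is highest in Pcgf1/2/4-/- at 5.87 and 5.42 CPM, and Hoxc4 is lowest in Pcgf3/5/6-/- at 0.316 and 0.

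RING1B and H2AK119Ub1 peaks over the clusters were nearly gone in Pcgf1/2/4-/-, while SUZ12 stayed at most Hox promoters. RING1B was at 8 and 9 Hox promoters in the 2 lists (6.41% and 5.74% of all) and covered 1.71% and 1.18% of the clusters. Hoxa3, Hoxa4, Hoxa7, Hoxd1, Hoxd3, Hoxd11 and Hoxd13 had a peak in both lists, and no Hoxb promoter had one in either. H2AK119Ub1 was at 1 and 0 Hox promoters (1.1197% and 0.634%). SUZ12 remained at 26 (12.6%) but covered a smaller part of the clusters than in wild-type, and H3K27me3 was at 7 (4.2%). SUZ12 stood without RING1B at 20 or 19 promoters, and 11 promoters had none of RING1B, SUZ12 and H3K27me3. These joint counts were not made over all promoters, where SUZ12 was also at a larger share (12.6%) than RING1B (6.41% and 5.74%). Hoxa7 and Hoxd13 and, in the second list, Hoxa9 and Hoxc10 rose while their promoters still had a RING1B peak. The RING1B lists of this line were shorter than that of wild-type (2051 and 1814 against 5454 peaks). Posterior neuromesodermal markers summed to 36.8 to 42.5 CPM here (Nkx1-2 at 0). Primitive endoderm markers, mostly Dab2 (10.45 CPM), summed to 14.95 to 16.7 CPM with none of 7 at 0. In wild-type these markers summed to 3.09 to 3.57 with 5 at 0. Their part in the Hox result was not tested.

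Set against the lines that lack fewer proteins, the triple line was higher in Hoxd9, Hoxd10 and Hoxd13, which passed the filter only through it, and lower in Hoxa2 and Hoxa3. Against Pcgf1-/-, 4 of 18 members were raised (19.6% of all tested genes) and 3 lowered (22.0%). Against Pcgf2/4-/-, 4 were raised (11.6%) and 3 lowered (18.4%). The members were the same in both comparisons: Hoxd9, Hoxd10, Hoxd13 and Hoxa10 were raised, and Hoxa2 and Hoxa3 were among those lowered. Among the 9 that reached the filter level in wild-type, 1 was raised and 2 were lowered in each comparison. Against Pcgf2/4-/- the call was lost for Hoxa2 in 5 of 11 alternatives (DESeq2 adjusted p = 0.0562) and for Hoxd10 in 3 of 10. Hoxa10 lost it without either triple-knockout library (adjusted p = 0.0558 and 0.12 by edgeR). Against Pcgf1-/- Hoxa2 lost it in 3 of 11. The 2 comparisons share the triple-knockout libraries. Against Pcgf1-/-, Hoxd9 was 41.9-fold higher (exact 95% interval 13.3 to 212, counting error only) and Hoxd10 at least 26.5-fold higher. Hoxa3, a throat patterning gene, had 4.92 and 4.80 CPM in Pcgf1-/-, 3.35 and 4.73 in Pcgf2/4-/- and 0.534 and 0.452 in the triple line, 10.0% of the level in Pcgf1-/- (1.19% to 37.7%) and 11.1% of that in Pcgf2/4-/- (1.31% to 42.5%).

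Whether the 2 losses add up was asked with an interaction term, the log2 change in the triple line minus the sum of the changes in Pcgf1-/- and Pcgf2/4-/-. It passed for 12 of the 18 tested members, where it passed for 30.9% of all tested genes. Among these it was negative for Hoxa2, Hoxa3, Hoxa7, Hoxa9, Hoxa10, Hoxb7, Hoxb13, Hoxc4 and Hoxc10, so their change in the triple line was smaller than the sum, and positive for Hoxd9 and Hoxd10. Hoxa3 had the most negative value at -5.27 ± 0.65 (adjusted p = 5.36e-05 by edgeR) and Hoxd9 the positive value 4.50 ± 1.20 (adjusted p = 0.0134 by edgeR). Hoxd9 and Hoxd10 count among the 12 but passed the filter only through the triple line, so their positive values are descriptions.

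In the line that lacks PCGF3, PCGF5 and PCGF6 more tested Hox genes fell than rose, as in Pcgf6-/-. Hoxb1 was the only member called raised. In Pcgf3/5/6-/- 8 of the 18 tested members fell, where 25.3% of all tested genes did, and Hoxb1 alone rose, where 28.0% did. Those that fell were Hoxa2, Hoxa7, Hoxa10, Hoxb7, Hoxc4, Hoxc5, Hoxc13 and Hoxd10. Among the 9 that reached the filter level in wild-type, 6 fell and none rose. The median log2 fold change was -1.59 over the 18 and 0.05 over all tested genes. Members numbered 4 to 8 summed to 3.79 and 3.04 CPM, against 23.8 and 21.7 in wild-type. Summed Hoxb counts were higher, at 19.3 and 15.2 CPM against 13.4 and 11.5 in wild-type. The sums of Hoxd and of members numbered 1 to 3 overlapped with wild-type. Those of Hoxa, Hoxc and members numbered 9 to 13 were lower.

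Hoxc4 had 5.42 and 6.19 CPM in wild-type and 0.316 and 0 in Pcgf3/5/6-/-, 1 count against 82, or 2.81% of wild-type (exact 95% interval 0.0703% to 16.1%, adjusted p = 4.38e-05 by edgeR). No other line had fewer than 4.44 CPM of it. Hoxb7 had no count against 18 in wild-type, at least 2.60-fold lower (adjusted p = 0.0145 by edgeR), a call lost without either Pcgf3/5/6-/- library (adjusted p = 0.0776 and 0.0734). Hoxa7 fell by 2.74 on the log2 scale, to 1.90 and 1.35 CPM, and Hoxc13 fell by 1.496 ± 0.42, from 11.3 and 9.99 to 4.42 and 3.04. Hoxa2 was at 4.91% and Hoxa10 at 8.23% of wild-type. Hoxd10 had no count against 7, at least 1.01-fold lower, a call (adjusted p = 0.0481 by edgeR) lost in 9 of 10 alternatives.

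Hoxb1, which sets the identity of a hindbrain segment, had no count in wild-type, Pcgf1-/-, Pcgf3/5-/-, Pcgf6-/- or Pcgf1/2/4-/-, 0.419 and 0.256 CPM in Pcgf2/4-/- and 2.84 and 2.03 in Pcgf3/5/6-/-. It was at least 11.5-fold higher than in wild-type (15 counts, adjusted p = 0.000325 by edgeR). It was tested only because it passed the filter through this line, so it had to be high here. It lost the call with loess offsets (adjusted p = 0.106 by edgeR) and fell below the filter when either Pcgf3/5/6-/- library was left out. The sums of primitive endoderm and fibroblast markers were higher in this line too. Trophoblast markers (4 genes) summed to 286 to 297 CPM against 116 to 122 in wild-type, with none at 0 in either. Of these Cdx2 was lower (19.5 against 74.4 CPM). Tfap2c (162 against 18.1), Ascl2 (101 against 26.4) and Elf5 (9.07 against 0.0713) were higher. Posterior neuromesodermal markers summed to 27.4 to 32.2 CPM (Nkx1-2 at 0) against 110 in wild-type. Their part in the Hox results was not tested.

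**Figure D5:**
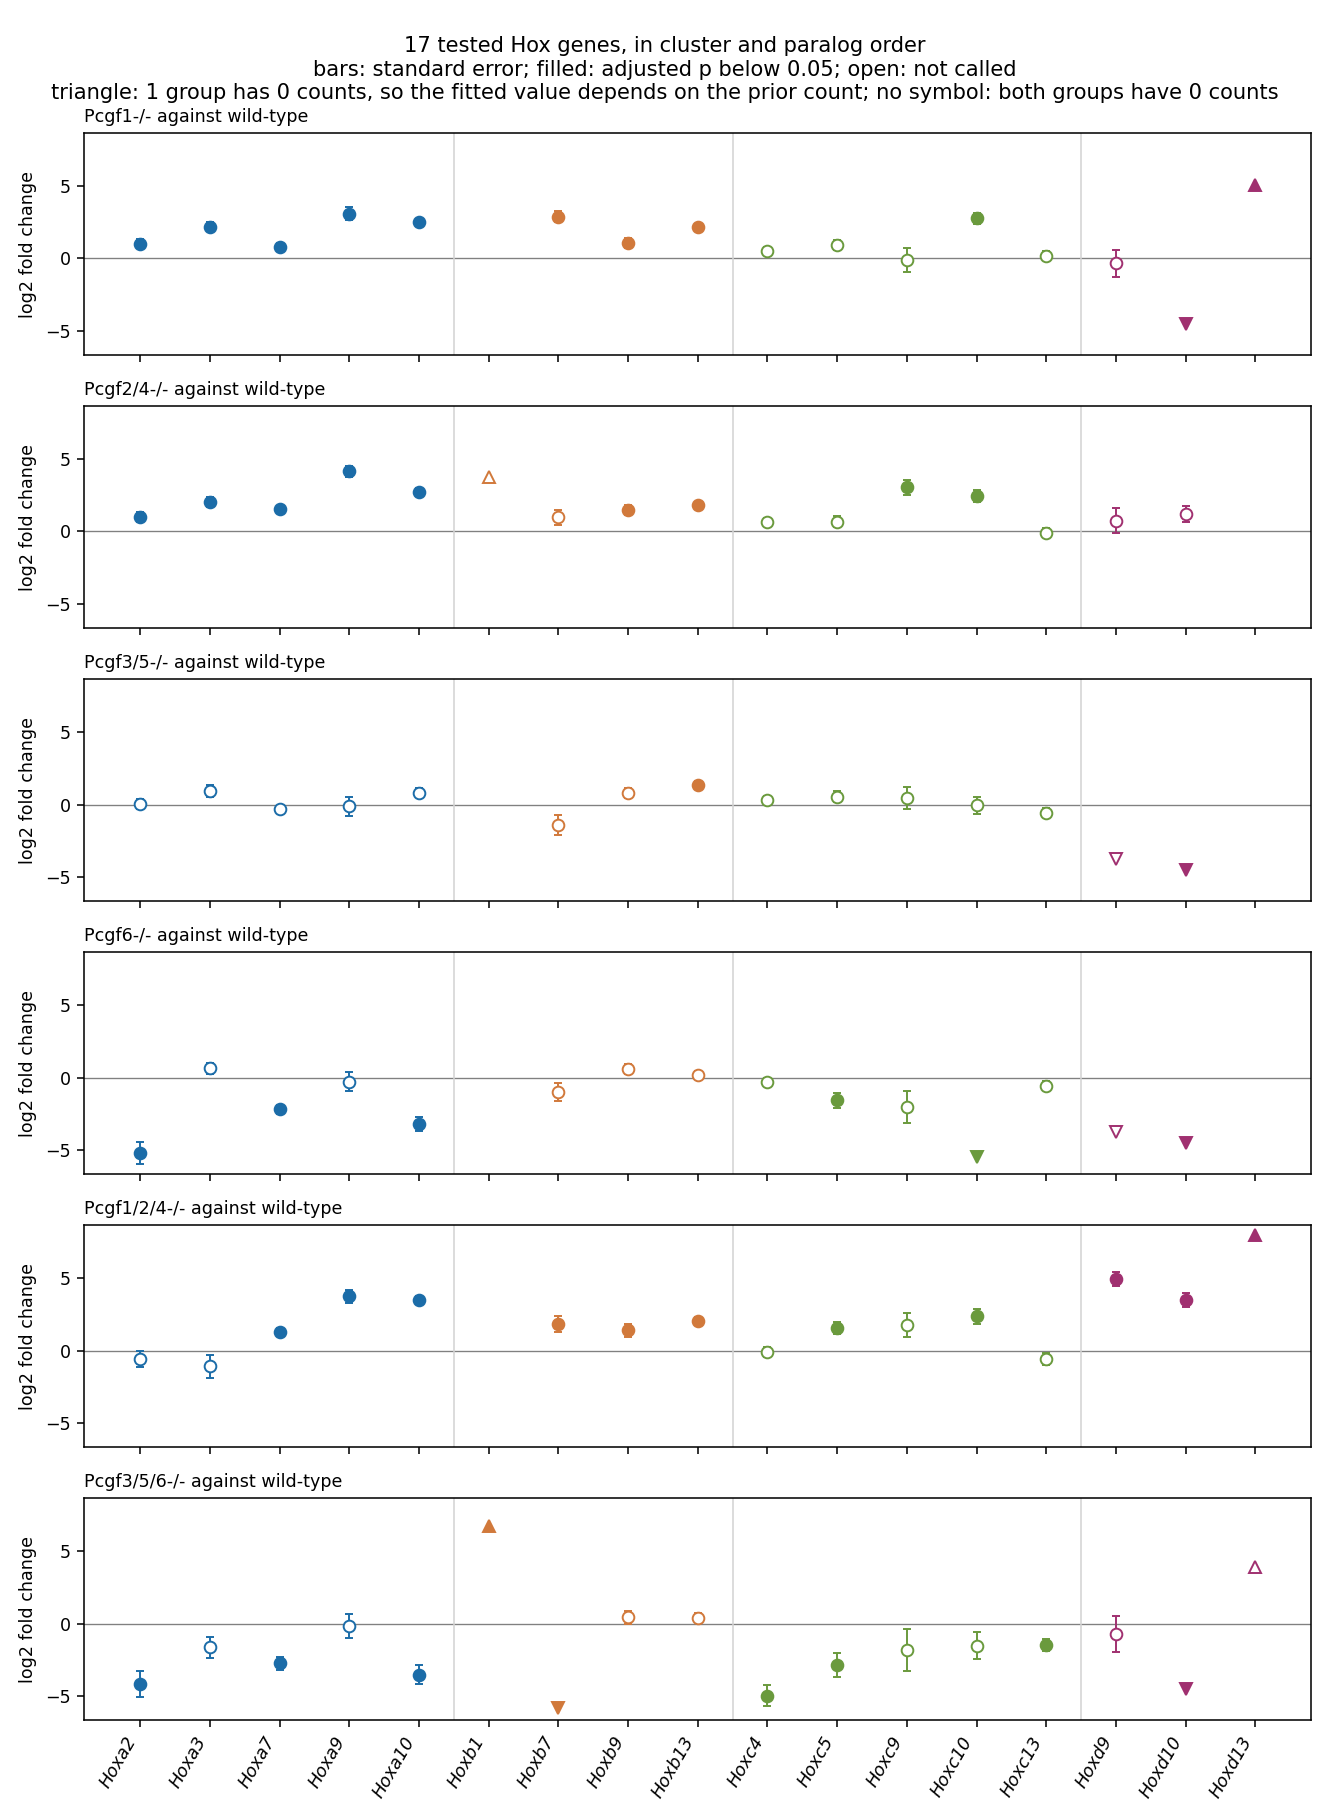
Log2 fold change against wild-type of tested Hox genes in the 6 knockout lines (bars are SE, filled symbols have an adjusted p below 0.05, triangles mark fits with no count in 1 group, and no symbol means no count in both). Filled symbols lie above 0 in Pcgf1-/-, Pcgf2/4-/- and Pcgf1/2/4-/-, except Hoxd10 in Pcgf1-/-, and below 0 in Pcgf6-/- and Pcgf3/5/6-/-, except Hoxb1 in Pcgf3/5/6-/-.

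RING1B peaks were at 37 Hox promoters in Pcgf3/5/6-/- (7.51% of all), gained at Hoxc4 and Hoxc13. They covered less of the clusters than in wild-type, 26.6% against 35.9%. The list was also shorter, with 3068 against 5454 peaks and 3.81 against 7.47 Mb of the genome. SUZ12 was at 38 (12.3% of all) and covered 46.9% against 34.95% in wild-type. H3K27me3 was at 38 (17.5%) and covered 71.4% against 23.6%, in a list of 14126 peaks and 18.2 Mb against 8063 peaks and 6.33 Mb. H2AK119Ub1 was at all 39 (30.1% of all) and covered 62.1% against 5.01%, in a list of 14353 peaks against 1741. With each list shortened to the shortest of the antibody, H2AK119Ub1 was at 24 promoters in this line. The wild-type count of 19 comes from its full list, so it does not have that length. Hoxc4 and Hoxc13, the promoters with an additional RING1B peak, both fell in RNA. In Pcgf6-/- the same promoters had gained RING1B and neither RNA passed the test.

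Against Pcgf3/5-/-, 1 of 18 members was raised in Pcgf3/5/6-/- (Hoxb1, 27.1% of all tested genes) and 7 were lowered (24.7%): Hoxa2, Hoxa3, Hoxa7, Hoxa10, Hoxb13, Hoxc4 and Hoxc5. Hoxb13 was lower by a log2 value of -0.94, at 12.6 and 10.1 CPM against 25.0 and 18.4, and so back near the wild-type 8.85 and 8.30. Against Pcgf6-/-, 2 members were raised, Hoxb1 among them (19.0% of all tested genes), and Hoxa3 and Hoxc4 lowered (27%). Hoxc4 was at 3.40% of its level in Pcgf6-/- (exact 95% interval 0.0848% to 19.6%). Both comparisons share the triple-knockout libraries. The interaction of the 2 losses passed for Hoxa3, Hoxb13 and Hoxc4, 3 of 18, where it passed for 34.9% of all tested genes, and was negative in each, at -5.04 ± 0.80 for Hoxc4.

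The PCGF proteins themselves differed in how much of the family they marked. PCGF2 was at 34 Hox promoters in wild-type, PCGF6 at 7, PCGF1 at 5 and PCGF3 at 3, in lists of 4472, 1868, 736 and 223 peaks that held 12.2%, 5.22%, 2.18% and 0.845% of all promoters. PCGF1 was at Hoxa3, Hoxa10, Hoxa11, Hoxc5 and Hoxd9, and at 17 promoters in Pcgf2/4-/- (5.23% of all) and 23 in Pcgf6-/- (9.26%). PCGF6 was at 18 in Pcgf1-/- (16.5%), 24 in Pcgf2/4-/- (30.8%) and 1 in Pcgf6-/-, and at no Hoxb promoter in any list of wild-type or a Pcgf knockout. A control list, labelled shCtr, had PCGF6 at 24 Hox promoters (18.9% of all, 7451 peaks), Hoxb7 among them. The knockout counts thus do not exceed the spread between the 2 control lists, 7 and 24. In Pcgf2/4-/- all 11 Hoxa promoters had PCGF6. These lists were also longer. Shortened to the shortest list among the lines that keep the protein, PCGF1 was at 2 Hox promoters in wild-type, 1 in Pcgf2/4-/- and 0 in Pcgf6-/-, and PCGF6 at 4 in wild-type and 7 in each of Pcgf1-/- and Pcgf2/4-/-, so the higher counts did not hold for PCGF1. In cells without EZH1 and EZH2, the enzymes that place H3K27me3, PCGF2 was at no Hox promoter, in a list of 163 peaks (0.7195% of all promoters), and PCGF1 at 26 (10.4%, 4150 peaks). In Ring1a-/- cells with floxed Ring1b PCGF2 was at 39 (9.18%, 3904 peaks) and PCGF1 at 37 (30.7%, 12735 peaks). In Ring1a/b-/- cells PCGF2 was at 0 (1.44%, 662 peaks) and PCGF1 at 1 (3.89%, 1091 peaks). These lists differ widely in length over the whole genome, so the Hox counts move with it.

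Hoxa7 was the Hox promoter that the variant proteins marked most often. It had a PCGF6 peak in wild-type, Pcgf1-/-, Pcgf2/4-/- and Pcgf3/5-/- but not in Pcgf6-/-, and a PCGF3 peak in wild-type, Pcgf1-/-, Pcgf2/4-/- and Pcgf6-/- but not in Pcgf3/5-/-. In wild-type the PCGF6 peak at chr6:52166996-52167653 (authors' fold 7.79), the PCGF3 peak at chr6:52167384-52167730 (18.1) and the USF1 peak at chr6:52166982-52167908 (76.8) overlapped. Each held the same single CACGTG, the E-box that USF1 binds, which lay 106, 32 and 5 bases from the summits. The 30 bases around it follow for the minus strand, on which Hoxa7 lies, at chr6:52167522-52167551, with the CACGTG in capitals. Searched within 1 kb of the most upstream start of each gene, CACGTG, which reads the same on both strands, was at 14 of 39 Hox genes (35.9%) and at 27.8% of all protein-coding genes. That window does not reach the E-box shown here, and Hoxa7 is not among the 14. USF1 peaks were at 22 Hox promoters (13.6% of all), 1 of them in Hoxb.
Hoxa7 site: catgtgggcggtCACGTGccgcggcgagct

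Hoxa7 RNA had the value 11.6 and 10.55 CPM in wild-type. It was at 19.2 and 19.9 in Pcgf1-/-, 29.3 and 34.6 in Pcgf2/4-/-, 8.02 and 9.78 in Pcgf3/5-/-, 2.86 and 1.84 in Pcgf6-/-, 18.7 and 34.3 in Pcgf1/2/4-/- and 1.90 and 1.35 in Pcgf3/5/6-/-. The 2 lines that lack PCGF6 were the lowest and all lines without PCGF1 or PCGF2 and PCGF4 the highest, with no overlap with wild-type.

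Genes that work with or upstream of the HOX proteins moved in both directions. Of the 9 TALE homeobox genes, whose products bind DNA together with HOX proteins, raised and lowered were 2 and 3 in Pcgf1-/-, 1 and 1 in Pcgf2/4-/-, 4 and 1 in Pcgf3/5-/-, 2 and 3 in Pcgf6-/-, 2 and 3 in Pcgf1/2/4-/- and 3 and 3 in Pcgf3/5/6-/-. Of all tested genes, 13.9% and 18.4%, 8.10% and 13.5%, 11.1% and 10.4%, 27.8% and 18.6%, 14.4% and 22.6%, and 28.0% and 25.3% were raised and lowered in the same order, so several of these counts and of those that follow are near the share of all genes. Pknox2 fell from 17.8 to 1.99 CPM in Pcgf1-/- and 2.05 in Pcgf6-/-. Meis1 rose from 7.005 to 27.5 CPM in Pcgf1/2/4-/-. Of 16 upstream regulators, 15 were tested, and raised and lowered were 5 and 6, 2 and 3, 2 and 3, 3 and 7, 3 and 5, and 5 and 4 in the same order of lines. Cdx1 and Cdx2, activators of central and posterior Hox genes, fell in Pcgf1-/-, Pcgf6-/- and both triple lines. Cdx2 had 74.4 CPM in wild-type, 22.7 in Pcgf1-/-, 5.37 in Pcgf6-/-, 35.3 in Pcgf1/2/4-/- and 19.5 in Pcgf3/5/6-/-. Of the Hox genes called, all or most were raised in Pcgf1-/- and Pcgf1/2/4-/- and lowered in Pcgf6-/- and Pcgf3/5/6-/-. The part of the Cdx genes in the Hox results was not tested. Of 6 ParaHox genes, relatives of the Hox genes that include the Cdx genes, 4 were tested, and raised and lowered were 2 and 2, 1 and 0, 1 and 0, 1 and 2, 1 and 2, and 0 and 2. Hoxa11os, an antisense RNA of Hoxa11, was the 1 tested noncoding gene of the clusters and rose in Pcgf1/2/4-/- (log2 fold change 2.28, adjusted p = 0.0196 by edgeR). The library preparation as labelled does not mark strand, so its reads cannot be told apart from those of Hoxa11.

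The genes outside the family whose profile over the 14 libraries was most like the mean profile of the 18 tested members were Yipf2 (Pearson r 0.982), Sync (0.981), Ciz1 (0.969), Exoc4 (0.966) and 1810019J16Rik (0.965), given as a description. In the authors' deposited tables of differential expression, 36 of the 39 Hox genes were listed. At an adjusted p below 0.05 the authors' deposited table called 11 raised and 0 lowered in Pcgf1-/-, 11 and 0 in Pcgf2/4-/-, 2 and 0 in Pcgf3/5-/-, 0 and 8 in Pcgf6-/-, 13 and 0 in Pcgf1/2/4-/- and 1 and 7 in Pcgf3/5/6-/-. The authors' deposited table for Pcgf6-/- names another clone number than the count columns, so it may describe another clone. The authors' deposited table did not call Hoxd10 lowered in Pcgf1-/-, Pcgf3/5-/- or Pcgf3/5/6-/-, and it called Hoxa5 raised in Pcgf1-/-, Pcgf2/4-/- and Pcgf1/2/4-/-, a member with too few counts to be tested here.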

How the data were processed

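The RNA counts are whole reads per gene that the authors deposited in 1 table for all 14 libraries, and no row of it was blank. Library totals ran from 2147968 to 7848161 counts, and intervals and floors cover counting error only. The submitters' processing notes name bcl2fastq 2, TopHat2 2.1.1, HTSeq 0.7.2, DESeq2 3.7, Bowtie 1.2.2, Picard 1.62, MACS2 2.1.1 and the mm9 build, without role or order. The authors' deposited tables of differential expression give log2 fold changes and p-values. The authors' peak lists give, as deposited, a fold enrichment and −log10 p and q for each peak. The lowest −log10 p was 10 over all 80 lists. Each list holds 1 sample.

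All 14 libraries entered 1 fit in edgeR 4.0.16 (R 4.3.3, limma 3.58.1) with TMM scaling, its default filter on low counts (1.73 CPM), quasi-likelihood tests and Benjamini-Hochberg adjustment over 15464 genes. CPM used the scaled totals. The biological coefficient of variation was 12.3%. The code was tested on simulated counts. A fold against a group without counts used a floor of 3 counts over the group. Where a group had 1 to 3 counts, an exact interval of the ratio was used.

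A promoter counted as marked when a peak came within 1 kb of any annotated start (GENCODE gene models of mm9, 22238 protein-coding genes). Coverage is the share of the span from the first to the last gene of a cluster that lies under merged peaks. Peak handling used Python 3.11.15 with pandas 2.3.3, and figures matplotlib 3.10.9.

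The members and gene lists were chosen with earlier results of these data known. Every library's value was to be given for up to 3 raised and 3 lowered members with the largest log2 change in each comparison with wild-type, among those called with both knockout libraries beyond both wild-type ones, and for the highest wild-type member of each cluster. Further members were named after their values were seen, and some single genes are not reported here. Alternatives were other scaling factors, DESeq2 1.42.0, no filter, fits of 2 groups, the replicate number as a block, loess offsets, thinned libraries, each library left out, a window of 2.5 kb and stricter or shortened peak lists. The interaction terms, the summed wild-type pair, a −log10 q of at least 20 and lists shortened among lines that keep the protein were added after the data were seen. The correlation of same-numbered libraries' deviations ranged from -0.462 to 0.375 over the pairs of genotypes, above 0.1 in 3 of them, and the numbers were not used as pairs.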

Additional observations from a re-analysis of the deposited data

Results flagged for a closer look

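For Hox genes of all 4 clusters, the change in lines that lack PCGF2 and PCGF4 differed with and without PCGF1. This was read from the interaction term of the edgeR fit, in log2 units with Benjamini-Hochberg adjusted p-values over all tested genes. Each value is the change in Pcgf1/2/4-/- minus the sum of the changes in the lines that lack fewer proteins, with 2 libraries in each group. In Hoxa, the value was -2.61 for Hoxa2 (adjusted p = 0.00379 by edgeR) and -5.27 for Hoxa3 (5.36e-05). The tail-ward Hoxa genes were also below the sum, with -1.09 for Hoxa7 (adjusted p = 0.0221 by edgeR), -3.49 for Hoxa9 (0.000314) and -1.70 for Hoxa10 (0.00139). In Hoxb, Hoxb7 had -2.001 (adjusted p = 0.0321 by edgeR) and Hoxb13 had -1.90 (0.000633). In Hoxc, Hoxc4 had -1.28 (adjusted p = 0.0365 by edgeR) and Hoxc10 had -2.83 (0.00194). Hoxd went the other way, with 4.50 for Hoxd9 (adjusted p = 0.0134 by edgeR) and 6.78 for Hoxd10 (0.00275), and the size for Hoxd10 depends on the prior count because it had no count in Pcgf1-/-. Hoxd9 and Hoxd10 passed the filter on low counts only through the triple line.

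The change in lines that lack PCGF6 differed with and without PCGF3 and PCGF5 for 3 members. The interaction was -3.19 for Hoxa3 (adjusted p = 0.00538 by edgeR), -1.13 for Hoxb13 (0.0299) and -5.04 for Hoxc4 (0.000289). For Hoxc4, neither Pcgf3/5-/- nor Pcgf6-/- was called against wild-type, while the triple line had 1 count.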

How the results depend on the processing

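No call on a Hox gene reversed in any alternative, and the causes of the differences below were not tested. Thinning every library to the smallest total left 6 Hox genes called against wild-type in Pcgf1-/-, 6 in Pcgf2/4-/-, 1 in Pcgf3/5-/-, 4 in Pcgf6-/- and 5 in Pcgf3/5/6-/-, from fewer counts. Loess offsets gave 12 in Pcgf6-/-. Pcgf3/5-/- had 1 without a filter and with the wild-type pair summed. DESeq2 moved the median of all genes by 0.11 (log2) in Pcgf1/2/4-/-.

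Leaving out 1 library gave 7 to 12 called in Pcgf1-/- (7 without Pcgf1-/- replicate 1), 6 to 13 in Pcgf2/4-/- (6 without Pcgf2/4-/- replicate 2), 1 to 2 in Pcgf3/5-/- (1 without either wild-type library or without replicate 2), 5 to 6 in Pcgf6-/-, 8 to 11 in Pcgf1/2/4-/- and 4 to 8 in Pcgf3/5/6-/- (4 without Pcgf3/5/6-/- replicate 2). It gave 6 to 8 in Pcgf1/2/4-/- against Pcgf1-/-, 5 to 8 against Pcgf2/4-/-, 6 to 10 in Pcgf3/5/6-/- against Pcgf3/5-/- and 1 to 3 against Pcgf6-/- (1 without Pcgf3/5/6-/- replicate 1, 2 without replicate 2).

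With the replicate number as a block, the counts against wild-type were 11, 9, 1, 7, 11 and 8 in Pcgf1-/-, Pcgf2/4-/-, Pcgf3/5-/-, Pcgf6-/-, Pcgf1/2/4-/- and Pcgf3/5/6-/-, and 7, 7, 8 and 4 in the 4 comparisons between knockouts. Not every pair of genotypes had libraries that deviated together, so the numbers were not taken as pairs.

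With a −log10 q of at least 20, H2AK119Ub1 was at 0 Hox promoters in wild-type, 3 in Pcgf1-/-, 0 in Pcgf6-/- and 0 in the first Pcgf1/2/4-/- list, and H3K27me3 at 0 in wild-type, 1 in Pcgf6-/- and 0 in Pcgf1/2/4-/-. At the same limit PCGF1 was at 0 in wild-type, Pcgf2/4-/-, Pcgf3/5-/- and Pcgf6-/-, PCGF6 at 1, 6, 12, 1 and 0 in wild-type, Pcgf1-/-, Pcgf2/4-/-, Pcgf3/5-/- and Pcgf6-/-, and SUZ12 at 9 in Pcgf1/2/4-/-. RING1B was then at 15 promoters and 5.79% of the clusters in Pcgf2/4-/-, and at 3 and 2 promoters and 0.541% and 0.426% in the Pcgf1/2/4-/- lists.

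With each list shortened to the shortest of its antibody, H2AK119Ub1 was at 12, 11, 22, 11 and 24 in Pcgf1-/-, Pcgf2/4-/-, Pcgf3/5-/-, Pcgf6-/- and Pcgf3/5/6-/-, and PCGF2 at 6, 7, 8 and 18 in wild-type, Pcgf1-/-, Pcgf3/5-/- and Pcgf6-/-. PCGF1 was at 0 in wild-type, Pcgf2/4-/-, Pcgf3/5-/- and Pcgf6-/-, PCGF6 at 1, 1, 0, 2 and 0 in wild-type, Pcgf1-/-, Pcgf2/4-/-, Pcgf3/5-/- and Pcgf6-/-, and RING1B covered 7.49% in Pcgf2/4-/-. Shortened only among lines that keep the protein, PCGF1 was at 2, 1 and 0 in wild-type, Pcgf2/4-/- and Pcgf6-/-, and PCGF6 at 4, 7 and 7 in wild-type, Pcgf1-/- and Pcgf2/4-/-. In a window of 2.5 kb, PCGF1 was at 8 in wild-type and 4 in Pcgf3/5-/-, PCGF6 at 2 in Pcgf6-/- and H2AK119Ub1 at 2 in the first Pcgf1/2/4-/- list.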

Other observations

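The genes that flank the clusters, which are not Hox genes, were measured in the same fit. Beside Hoxa, Skap2, an adaptor protein gene, stood at 163 CPM in wild-type and 67.2 in Pcgf3/5/6-/- (log2 fold change -1.28, adjusted p = 5.09e-05 by edgeR). Near Hoxb, Ttll6, a tubulin-modifying enzyme gene, had 1.49 CPM in wild-type and was raised in Pcgf1-/- (3.33), Pcgf2/4-/- (4.69), Pcgf6-/- (5.19) and Pcgf3/5/6-/- (5.84). Ttll6 thus rose in lines where Hoxb genes rose and in lines where Hoxb7 did not. Near Hoxc, Smug1, a DNA repair gene, fell from 102 to 60.3 CPM in Pcgf6-/- and 51.0 in Pcgf3/5/6-/-. Near Hoxd, Lnp rose in Pcgf6-/- (140 against 83.2 CPM) and fell in Pcgf1/2/4-/- (66.8). Of the 4 tested genes near Hoxd, 3 were raised and 0 lowered in Pcgf6-/- (27.8% and 18.6% of all tested genes). In Pcgf1/2/4-/- 2 were raised and 2 lowered (14.4% and 22.6%). Evx2, the homeobox gene next to Hoxd13, had no count in any library of these 7 genotypes.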
